A study of Mus musculus with 22 samples.

Results

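The 39 genes described here encode the proteins of the vascular basement membrane and its surrounding matrix, the integrins that hold cells to it, and the chaperone and enzymes that process collagen. They were chosen by gene symbol, and all 39 were found among the 37991 genes of a table from RNA-seq of sorted mouse brain endothelial cells. They comprise 4 collagens, 6 laminin chains, 5 linkers and proteoglycans, 7 glycoproteins and matricellular proteins, 5 elastic fibre and vessel-wall glycoproteins, 7 integrin subunits and 5 collagen-processing genes.

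The study asked how brain endothelial cells respond when glutamatergic neurons are made more or less active. In the activation group, C57BL/6 mice with the genotype CamKIIa-tTA; TRE-hM3Dq received CNO, the ligand of this engineered activating receptor (a DREADD), and 4 libraries were made. Activation controls were 4 libraries from littermates that also received CNO. In the silencing group, C57BL/6 mice with CamKIIa-tTA; TRE-hM4Di, which carries the inhibitory receptor, received CNO, and 4 libraries stood against 4 from CNO-treated littermates, the silencing controls. The series text says that the control littermates did not express a DREADD, whereas their genotype label is the same as that of the treated mice, so the allele they lacked is not given. The CamKIIa promoter drives tTA, and through it the receptor, in forebrain excitatory neurons, whereas the sequenced cells were endothelial. In both experiments cortex and hippocampus were taken 3 hours after CNO. The whisker-plus group was 3 libraries from wild-type C57BL/6 mice that explored a new enriched environment in the dark with their whiskers, and the whisker-minus group was 3 libraries from wild-type mice without whiskers in an empty cage. Whiskers and environment differed together in that comparison and cannot be told apart, and each of its libraries pooled 5 pairs of barrel cortices. All cells were sorted for CD31, and ages are not given in the labels.

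The basement membrane is a thin sheet of matrix laid down by endothelial cells, pericytes and astrocytes around every brain capillary. Laminin trimers and a network of type IV collagen form its layers, nidogens and the proteoglycan perlecan link them, and integrins on the cell surface bind laminin, collagen and fibronectin. Collagen chains are hydroxylated and folded in the endoplasmic reticulum, where the chaperone HSP47, the product of Serpinh1, holds them, and lysyl oxidases cross-link them after secretion.

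Depth was lowest for the activation libraries and their controls (18387666 to 25163689 counted reads), higher for the silencing set (25897142 to 32957916) and highest for the whisker set (44187482 to 57673270). Values are CPM, read counts scaled to a common library size. Markers of endothelial cells, 8 genes including Pecam1 and Cldn5, summed to between 15005 and 21698 CPM in the 22 libraries. The 9 pericyte markers summed to between 569 and 2774 CPM, the 7 smooth muscle markers to between 143 and 1607 CPM, and the 8 fibroblast markers to between 17.7 and 86.4 CPM. All pericyte and smooth muscle markers had reads in each library, while Lum (fibroblast), Gad2 (neuron), Mog and Mag (oligodendrocyte) and Aif1 (microglia) had 0 reads in at least 1. Smooth muscle markers were higher on average in activation libraries than in their controls for 7 of 7 genes, with a mean sum 1.37 times as high, and in whisker-plus libraries for 0 of 7, with a mean sum 0.471 times that of whisker-minus libraries. Pericyte markers were higher in silencing libraries for 8 of 9 genes, with a mean sum 1.18 times that of their controls. Endothelial markers were higher in silencing libraries for 0 of 8 genes, with a mean sum 0.858 times that of their controls. Astrocyte markers were higher in activation libraries for 7 of 7 genes (mean sum 1.13 times that of their controls) and in silencing libraries for 0 of 7 (0.874 times). In whisker-plus libraries astrocyte markers were higher for 0 of 7 genes (0.383 times the whisker-minus sum) and microglia markers for 6 of 6 (1.55 times). The marker sums of each cell type overlapped between treated and control libraries in every comparison. Pericytes, smooth muscle cells and astrocytes also make basement membrane, and the part of these cells and of endothelial content in the results below was not tested. In bulk samples a change in the number of cells of a type and a change in RNA per cell cannot be told apart.

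Levels in the control libraries were compared per kilobase of exon, over 11 libraries. The highest median was that of Spock2, a secreted proteoglycan of the testican family, at 1464 CPM per kilobase (range 1319 to 1881), followed by Sparcl1 (hevin) at 978, Cyr61 at 676, Sparc at 405 and Fn1 (fibronectin) at 320. Among the core sheet proteins, the type IV collagen chains Col4a1 and Col4a2 had medians of 204 and 171 CPM per kilobase, and the ratio of Col4a1 to Col4a2 stayed between 1.03 and 1.34 in all 22 libraries. The laminin chains were uneven. Lamb2 had a median of 145, Lama5 58.6, Lamc1 33.1, Lama4 8.49, Lama3 4.30 and Lamb1 0.55 CPM per kilobase, so Lamb2 was the main beta chain and Lama5 the main alpha chain among those measured here. Integrin subunits were led by Itgb1 at 176 and Itga6 at 102, with Itga1 at 12.9, Itga5 at 12.4, Itgb5 at 5.75, Itgav at 3.05 and Itgb3 at 0.65. Col15a1 was lowest, at 0.13 CPM per kilobase, and was too low to be tested in the activation and whisker comparisons. Of the 38 neighbouring pairs in this order, 36 had overlapping ranges. The exceptions were Lamc1 above Plod1 and Itgav above Emilin1.

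**Figure D1:**
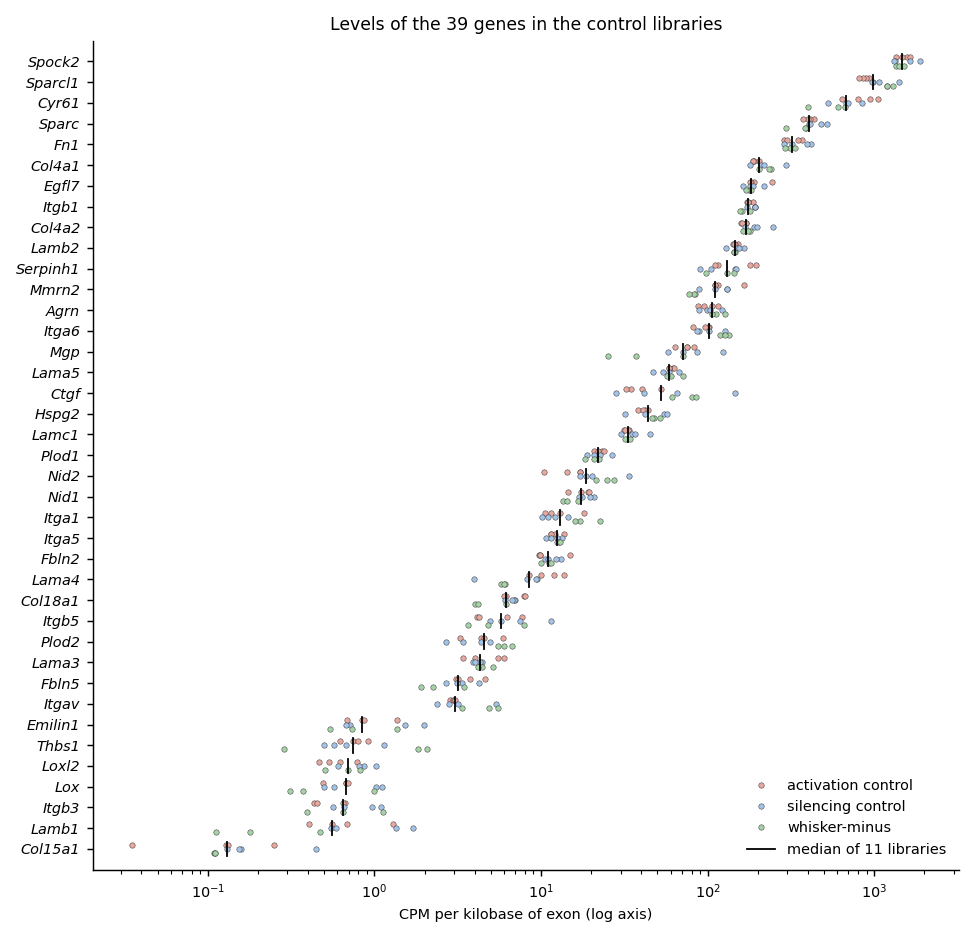
Levels of the 39 genes in the 11 control libraries, in CPM per kilobase of exon on a log axis, with genes ordered by median. Points are libraries coloured by control group and vertical ticks are medians, which run down the page from Spock2 (1464) to Col15a1 (0.13).

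Each comparison was tested with limma on log2(CPM + 1), and a gene passed when its adjusted p over all tested genes was under 0.05. Libraries with the same replicate number resembled each other within each experiment, so the fit with the replicate number as a block is printed beside the plain fit. Each fold change is a difference of mean log2(CPM + 1), is followed by the standard error of the plain fit, and is the same in both fits.

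The activation comparison asked whether more glutamatergic activity altered these genes in endothelial cells. Serpinh1 and Nid1 were higher and Lama3 lower in activation libraries, by fold changes of 0.82, 0.43 and -0.58 on the log2 scale, in a fit that pairs libraries by replicate number. In the plain fit 0 of 38 tested members passed, against a background of 0.14% of 12872 genes (18 genes), and 14 members had an unadjusted p under 0.05, against 11.4% of all genes. With the replicate block these 3 members passed, against 1.82% of all genes (234 genes; 1.03% higher and 0.792% lower). Only Lama3 passed with TMM scaling added to the block (1.07% of all genes) or in edgeR with the block (0.715%). Both settings were chosen after seeing the data. The groups did not overlap for 12 of 38 members, against 7.16% of all genes. Of these, 7 were higher in activation libraries (Col4a2, Nid1, Sparc, Thbs1, Itgb1, Lox, Serpinh1), against 3.65% of all genes, and 5 were lower (Lamb2, Spock2, Fn1, Sparcl1, Fbln2), against 3.5%. The median log2 fold change of the 38 members was 0.16, with 24 above 0, against a median of -0.01 over all genes.

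Serpinh1, the collagen chaperone, had 644, 561, 562 and 753 CPM in activation libraries, against 281, 437, 271 and 473 CPM in activation controls. Every activation library was above every control, and the group means were 630 ± 90.8 and 366 ± 105 CPM (SD, n = 4 each). Its log2 fold change was 0.82 ± 0.19, with an adjusted p of 0.143 in the plain fit and 0.0282 with the block. The other collagen-processing genes, none of which passed, lay on the same side of 0. Plod1 and Plod2, lysyl hydroxylases, had log2 fold changes of 0.19 ± 0.09 and 0.37 ± 0.16, and the cross-linking enzymes Lox and Loxl2 had 0.76 ± 0.26 and 0.39 ± 0.20. Lox had 6.70, 3.30, 4.82 and 9.91 CPM in activation libraries, against 2.34, 3.22, 3.22 and 3.30 CPM in controls, with the lowest activation library and the highest control at the same rounded value. The smooth muscle sums of the same activation libraries were 479, 290, 240 and 784 CPM, against 482, 208, 286 and 335 CPM in controls, and the part of mural cells in the Lox values was not tested.

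Nid1 encodes nidogen-1, which joins the laminin and collagen IV layers. It had 189, 138, 153 and 184 CPM in activation libraries, against 132, 101, 135 and 121 CPM in controls, so the groups were separated by a small gap. The log2 fold change was 0.43 ± 0.13, with an adjusted p of 0.235 in the plain fit and 0.0447 with the block. Nid2 stood at 0.39 ± 0.19 and did not pass. Its exons overlap those of Rtraf on the opposite strand, and the sources used here do not say whether counting used strand. Perlecan (Hspg2) at -0.07 ± 0.16 and agrin (Agrn) at -0.21 ± 0.14 also did not pass.

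Lama3, the laminin alpha-3 chain, moved the other way. It had 24.8, 32.8, 49.0 and 29.5 CPM in activation libraries, against 36.8, 59.3, 64.6 and 43.2 CPM in controls. The groups overlapped, but each activation library was below the control of the same number. Its log2 fold change was -0.58 ± 0.22, with an adjusted p of 0.344 in the plain fit and 0.0282 with the block. With each pair left out in turn the block fit called 5 to 50 of all genes, against 234 with all pairs, and 0 to 1 members. Serpinh1 passed in 1 of these 4 fits, and Nid1 and Lama3 in 0. Their log2 fold changes in these fits were 0.69 to 0.97 for Serpinh1, 0.38 to 0.52 for Nid1 and -0.64 to -0.49 for Lama3.

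Among the laminins that build the endothelial sheet, Lamb2 had 835, 752, 801 and 857 CPM in activation libraries, against 921, 865, 890 and 871 CPM in controls. The groups did not overlap, and the difference was small, with a log2 fold change of -0.13 ± 0.09 that did not pass. Lama4 and Lamc1 were at -0.02 ± 0.15 and -0.03 ± 0.10, and Lama5 at 0.24 ± 0.13. Type IV collagen stood higher in activation libraries without passing. Col4a2 had 1730, 1432, 1149 and 1563 CPM in activation libraries, against 1123, 1131, 1046 and 1067 CPM in controls, and a log2 fold change of 0.41 ± 0.13 (adjusted p of 0.265, and 0.104 with the block). Col4a1 was at 0.32 ± 0.13 and Col18a1, the precursor of endostatin, at 0.39 ± 0.14.

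Sparc, a collagen-binding matricellular protein, had 2340, 2053, 1952 and 2315 CPM in activation libraries, against 1657, 1566, 1508 and 1422 CPM in controls. The lowest activation library was above the highest control, and the log2 fold change was 0.49 ± 0.12 (adjusted p of 0.153, and 0.0658 with the block). Itgb1, the beta subunit shared by the main laminin, collagen and fibronectin receptors, had 959, 857, 889 and 1036 CPM in activation libraries, against 768, 703, 714 and 716 CPM in controls. Its groups did not overlap either, with a log2 fold change of 0.36 ± 0.10 (adjusted p of 0.195, and 0.0786 with the block). Both passed in DESeq2, run on the reads recovered from the CPM values, with adjusted p of 0.000199 and 0.00302, where 6 members passed against 2.88% of all genes; edgeR called 0 members on the same reads, against 0.0155% of all genes. In the authors' deposited table, 5 members had an FDR under 0.05 for activation (Nid1, Spock2, Sparc, Itgb1 and Serpinh1), against 2.48% of 12980 genes.

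Spock2, the most abundant member, had 5517, 4223, 6941 and 5691 CPM in activation libraries, against 8693, 8100, 9080 and 7460 CPM in controls. Each activation library was lower than every control. The log2 fold change was -0.59 ± 0.19, with an adjusted p of 0.249 in the plain fit and 0.120 with the block. Sparcl1 had 2362, 2357, 2241 and 2371 CPM in activation libraries, against 2745, 2603, 2518 and 2388 CPM in controls. It was separated by a narrow margin, with a log2 fold change of -0.13 ± 0.12. Both are also expressed by astrocytes, whose markers had higher sums in activation libraries as given above, and their part was not tested.

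Thbs1, thrombospondin-1, had the largest fold change of the members in this comparison and was chosen for mention after its values were seen. It had 14.9, 9.16, 5.72 and 36.4 CPM in activation libraries, against 3.75, 4.52, 4.84 and 5.52 CPM in controls. The values were ordered as the smooth muscle sums given above across the activation libraries but not across the controls. Activation control 1 had the highest sum of its group, 482 CPM, and the lowest Thbs1, 3.75 CPM. The log2 fold change of 1.34 ± 0.42 did not pass in either fit (adjusted p of 0.242, and 0.0771 with the block), and the part of smooth muscle RNA was not tested. Over the plain fits that each left out 1 library it ran from 0.87 to 1.70. Thbs1 was among the 6 members that DESeq2 called, against 2.88% of all genes, while edgeR called 0 members, against 0.0155%.

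Of 113 other matrix, receptor and processing genes, 87 were tested in the activation comparison and 0 passed in the plain fit. In that fit 14 had an unadjusted p under 0.05, against 11.4% of all genes. DESeq2 called 2, against 2.88% of all genes, and edgeR 0, against 0.0155%. In limma with the replicate block 1 passed, Tln2, against 1.82% of all genes. Tln2 encodes the integrin-activating adaptor talin-2. It had 39.4 ± 7.28 CPM in activation libraries and 66.6 ± 7.48 CPM in controls (SD, n = 4 each). Its log2 fold change was -0.75 ± 0.14 (adjusted p of 0.0750 in the plain fit, and 0.0238 with the block). The median log2 fold change of the 87 was 0.07.

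**Figure D2:**
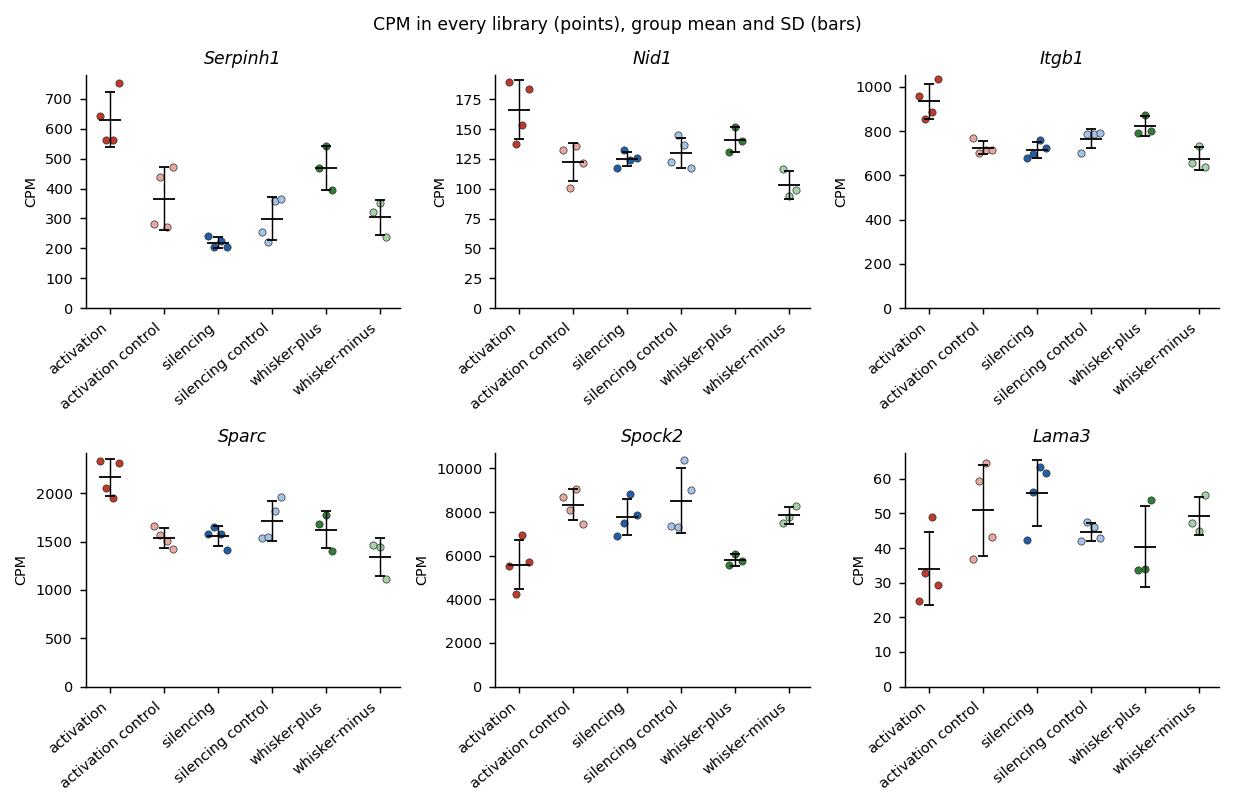
CPM of 6 members in each of the 22 libraries, with each treated group left of its control; points are libraries and bars are group means with SD. Serpinh1, Nid1 and Itgb1 lie above the controls without overlap in the activation and whisker experiments, and Spock2 lies below them.

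The 250 bases before the annotated start are shown for 4 of the 6 members separated in the same direction in the activation and whisker comparisons. Serpinh1, Nid1 and Itgb1 were higher in both, and Spock2 was lower. Lamb2 and Sparcl1, also lower in both, are not shown, so Spock2 alone stands for the lower genes. The sequences are from RefSeq on GRCm38.p6 and were matched by gene symbol, because the submitters' processing notes name mm9. Capitals mark 3 motifs searched on both strands, the GC box (GGGCGG), the CCAAT box (CCAAT, or ATTGG on the other strand) and the TEAD element (GGAATG).
Serpinh1: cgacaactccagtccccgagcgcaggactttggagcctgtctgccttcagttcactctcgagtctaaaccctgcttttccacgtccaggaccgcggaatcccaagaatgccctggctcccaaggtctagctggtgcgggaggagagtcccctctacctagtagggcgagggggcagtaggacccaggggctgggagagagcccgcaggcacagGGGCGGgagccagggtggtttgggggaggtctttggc
Nid1: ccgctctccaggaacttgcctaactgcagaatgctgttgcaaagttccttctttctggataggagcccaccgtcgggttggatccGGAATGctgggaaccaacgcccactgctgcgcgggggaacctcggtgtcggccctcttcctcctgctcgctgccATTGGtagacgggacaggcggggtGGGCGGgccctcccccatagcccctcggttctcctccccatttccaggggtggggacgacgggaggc
Itgb1: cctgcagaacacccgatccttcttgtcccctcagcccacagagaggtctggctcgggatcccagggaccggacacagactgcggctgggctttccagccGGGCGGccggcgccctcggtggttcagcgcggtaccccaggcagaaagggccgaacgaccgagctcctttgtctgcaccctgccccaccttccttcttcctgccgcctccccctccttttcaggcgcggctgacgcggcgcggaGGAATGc
Spock2: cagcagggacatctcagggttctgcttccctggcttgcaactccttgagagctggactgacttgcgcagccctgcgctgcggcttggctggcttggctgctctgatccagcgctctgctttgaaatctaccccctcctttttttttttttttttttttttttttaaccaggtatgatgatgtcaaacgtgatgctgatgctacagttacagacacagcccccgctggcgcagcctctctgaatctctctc
Serpinh1 lies at chr7:99353240-99353489 on the minus strand, Nid1 at chr13:13437352-13437601, Itgb1 at chr8:128685404-128685653 and Spock2 at chr10:60106007-60106256 on the plus strand. The windows of Serpinh1, Nid1 and Itgb1 held a GC box each and were 63.6%, 64.4% and 68% G or C. The Spock2 window held none of the 3 motifs and was 51.2% G or C. Nid1 also had a CCAAT box and a TEAD element, and Itgb1 a TEAD element. Windows were found for 24 of the 39 members (29 windows). A GC box was in 17 of these 29 windows (58.6%), against 32.7% of 32851 windows of all genes. The CCAAT box was in 6 (20.7%, against 33.9%) and the TEAD element in 4 (13.8%, against 12.6%). A match is a match of letters and no sign that a factor binds there. The annotated starts of Col4a1 and Col4a2 lie 21 bases apart on opposite strands of chromosome 8.

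The silencing comparison asked whether less glutamatergic activity altered these genes. Lama4 was lower in all silencing libraries than in any control, with a log2 fold change of -1.01, but neither it nor any other member passed. In the plain fit 0 of 39 members passed, against 0.177% of 13017 genes (23 genes), and 7 had an unadjusted p under 0.05, against 16.1% of all genes. With the replicate block 0 members passed, against 1.04% of all genes (136 genes). The groups did not overlap for 3 of 39 members, Col18a1, Lama4 and Itga5, all lower in silencing libraries, against 9.55% of all genes in either direction and 7.3% lower. The median log2 fold change was -0.07 for the members and -0.07 for all genes, and 17 of the 39 were above 0. Of the 113 other matrix, receptor and processing genes, 90 were tested and 0 passed in either fit. In the plain fit 12 of them had an unadjusted p under 0.05, against 16.1% of all genes. DESeq2 called 5, against 3.55% of all genes, and edgeR 0, against 0.184%.

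Lama4, the laminin alpha-4 chain of capillary laminin, was farthest from 0 and was named after its values were seen. It had 38.4, 44.3, 45.0 and 46.8 CPM in silencing libraries, against 114, 48.0, 99.7 and 113 CPM in silencing controls. Control 2 lay next to the silencing libraries, and the other controls were at more than 2 times their level. The log2 fold change was -1.01 ± 0.24 (adjusted p of 0.118, and 0.0733 with the block). Without silencing control 2 it was -1.30 ± 0.09, with an adjusted p of 0.000120. Over the 8 plain fits that each left out 1 library it ran from -1.30 to -0.89, with adjusted p of up to 0.325. DESeq2 called 1 member, Lama4 (adjusted p of 0.00161), against 3.55% of all genes, and edgeR called 0 members, against 0.184%. In the authors' deposited table Lama4 was the 1 member with an FDR under 0.05 for silencing, against 3.15% of 13652 genes. The ratio of Lama5 to Lama4 per kilobase was between 12.2 and 14.8 in silencing libraries, against 5.74 to 11.8 in their controls. The ratio restates the Lama4 values and was not tested.

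Silencing control 2 lay at an end of its group for several members, although the check of single values described below flagged none of its values. This library had the highest Ctgf of its group, 417 CPM against 186, 118 and 81.1 CPM in the other controls, and the highest Col4a1, 2190 CPM. Its endothelial marker sum was the lowest of its group, 16048 CPM against 18437, 21698 and 20018 CPM. The silencing libraries had 15005 to 17092 CPM. Its smooth muscle (630 CPM), astrocyte (576 CPM) and microglia (51.0 CPM) sums were the highest of the silencing controls. Pericyte and fibroblast sums were highest in control 1. The part of cell content in these values was not tested. With all libraries 0 members and 0.177% of all genes passed in the plain fit. Without silencing control 2 this fit called 6 of 39 members, against 11.5% of 13127 genes (1504 genes). Ctgf (1.15 ± 0.32, adjusted p of 0.0472) and Itgav (0.42 ± 0.11, adjusted p of 0.0399) were then higher in silencing libraries. Egfl7 (-0.47 ± 0.11, adjusted p of 0.0266), Mmrn2 (-0.35 ± 0.09, adjusted p of 0.0332), Serpinh1 (-0.56 ± 0.13, adjusted p of 0.0269) and Lama4 were lower. Egfl7 and Mmrn2 encode proteins that endothelial cells secrete into the vessel wall. With all libraries their log2 fold changes were -0.40 ± 0.12 and -0.23 ± 0.13, and those of Ctgf and Itgav were 0.70 ± 0.45 (adjusted p of 0.469) and 0.19 ± 0.21 (adjusted p of 0.692). Endothelial markers were also lower in silencing libraries, as given above, and their part in the Egfl7, Mmrn2 and Lama4 values was not tested.

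Serpinh1 had 241, 204, 226 and 205 CPM in silencing libraries, against 255, 221, 359 and 364 CPM in their controls. Each silencing library was below the control of the same number, although the groups overlapped, and the log2 fold change of -0.42 ± 0.16 did not pass (adjusted p of 0.246, and 0.178 with the block). Lox and Loxl2 were at -0.49 ± 0.22 and -0.36 ± 0.17, Plod1 at -0.12 ± 0.11 and Plod2 at 0.11 ± 0.17. Col18a1 had 42.2, 38.4, 39.5 and 30.9 CPM in silencing libraries, against 48.7, 48.5, 42.4 and 47.3 CPM in controls. Itga5, the alpha subunit of the fibronectin receptor, had 49.4, 52.1, 49.8 and 47.1 CPM in silencing libraries, against 53.1, 56.9, 66.2 and 61.8 CPM in controls. The 2 genes were lower in every silencing library than in any control, with log2 fold changes of -0.31 ± 0.10 and -0.25 ± 0.08 (adjusted p of 0.203 and 0.195).

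**Figure D3:**
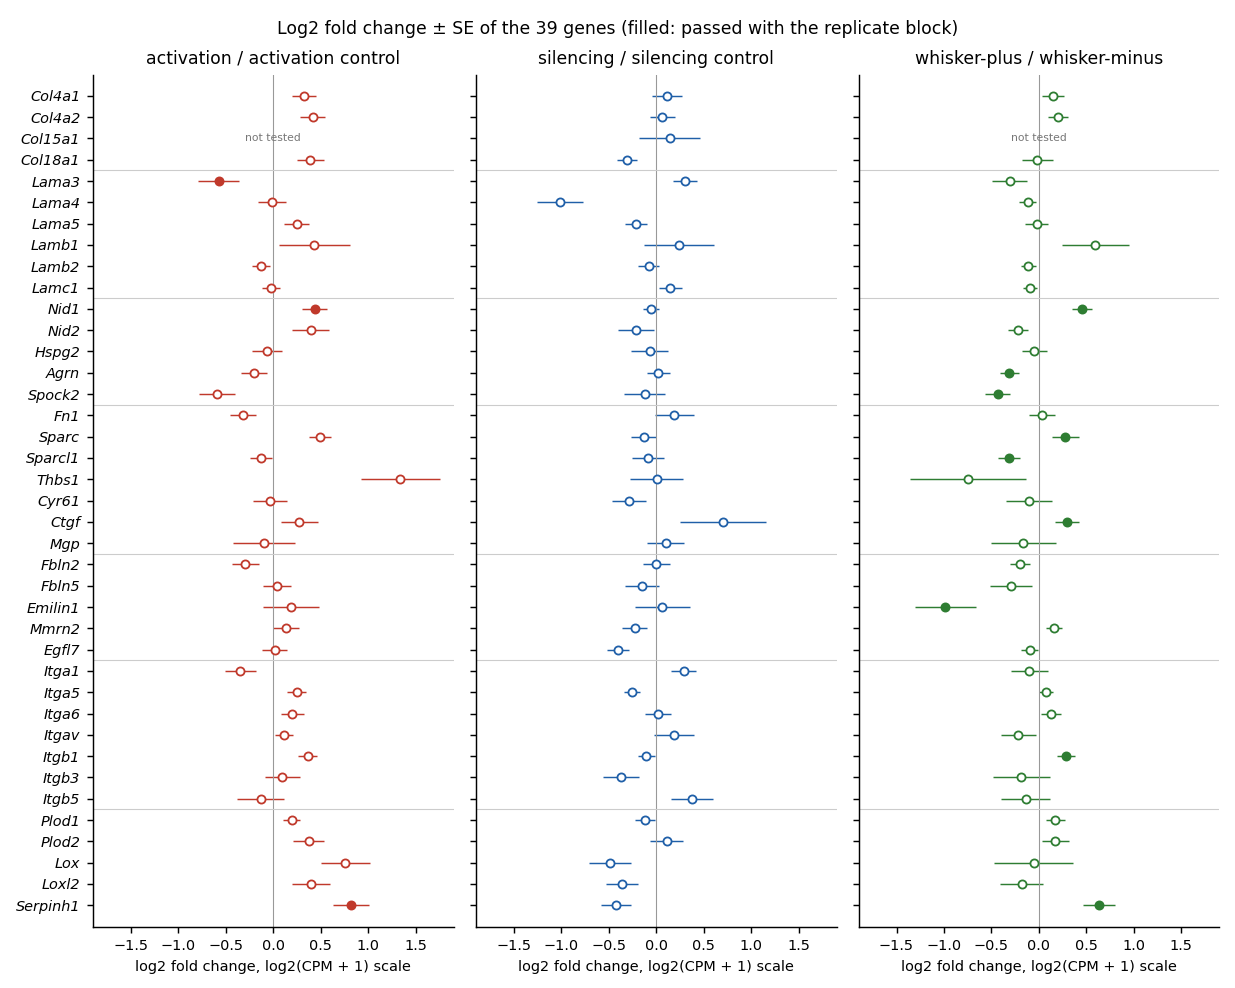
Log2 fold change (log2(CPM + 1) scale) with its standard error for the 39 members in the 3 comparisons, grouped by role from collagens at the top to collagen processing at the bottom. Filled points passed with the replicate block, which were 3 in activation, 0 in silencing and 9 in whisker-plus against whisker-minus.

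The whisker comparison concerned a natural stimulus. Serpinh1 and Nid1, as after activation, were higher in whisker-plus libraries, and Spock2 and Agrn were lower, in the fit that pairs libraries. In the plain fit 0 of 38 members passed, against 0% of 12776 genes (1656 genes, or 13%, with an unadjusted p under 0.05), and 8 members had an unadjusted p under 0.05. With the replicate block 9 members passed, against 8.59% of all genes (1097 genes). Of these, 5 were higher in whisker-plus libraries (Nid1, Sparc, Ctgf, Itgb1, Serpinh1), against 2.99% of all genes, and 4 were lower (Agrn, Spock2, Sparcl1, Emilin1), against 5.6%. With TMM scaling added to the block the split was 5 higher and 0 lower, against 484 higher (3.79%) and 359 lower (2.81%) over all genes. The groups did not overlap for 11 of 38 members, against 19.1% of all genes. Of these, 6 were higher in whisker-plus libraries (Nid1, Ctgf, Mmrn2, Itga5, Itgb1, Serpinh1), against 5.65%, and 5 were lower (Lamb2, Agrn, Spock2, Sparcl1, Emilin1), against 13.4%. The median log2 fold change was -0.10 for the members, with 14 of 38 above 0, and -0.07 for all genes. The block counts depended on the pairs used, for the members as for all genes. Without replicate 1, 17 members and 18.3% of all genes passed, without replicate 2, 7 members and 5.36%, and without replicate 3, 0 members and 1 gene in all. In these fits the log2 fold change of Serpinh1 was 0.59 to 0.67 and that of Itgb1 0.26 to 0.30.

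Serpinh1 rose in the block fit, with 470, 543 and 394 CPM in whisker-plus libraries, against 321, 352 and 239 CPM in whisker-minus libraries. All 3 whisker-plus libraries were above all whisker-minus libraries. Its log2 fold change was 0.63 ± 0.17 (adjusted p of 0.245 in the plain fit and 0.00153 with the block). Nid1 had 131, 152 and 140 CPM in whisker-plus libraries, against 116, 94.3 and 98.9 CPM in whisker-minus libraries. It too was separated, at 0.45 ± 0.10 (adjusted p of 0.217, and 0.0159 with the block). Nid2 lay on the other side of 0 at -0.22 ± 0.11 and did not pass, and the ratio of Nid2 to Nid1 per kilobase was 1.00 to 1.08 in whisker-plus libraries, against 1.57 to 1.75 in whisker-minus libraries.

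Itgb1 had 791, 875 and 803 CPM in whisker-plus libraries, against 656, 735 and 637 CPM in whisker-minus libraries, without overlap. The log2 fold change was 0.29 ± 0.09 (adjusted p of 0.287, and 0.0162 with the block). Sparc had 1685, 1776 and 1408 CPM in whisker-plus libraries, against 1469, 1445 and 1114 CPM in whisker-minus libraries. These groups overlapped, with each whisker-plus library above its own number, at 0.28 ± 0.14 (adjusted p of 0.475, and 0.0265 with the block). Ctgf, a matricellular target of YAP and TEAD, had 259, 258 and 269 CPM in whisker-plus libraries, against 174, 229 and 243 CPM in whisker-minus libraries. It was separated and passed with the block, at 0.30 ± 0.12 (adjusted p of 0.369, and 0.0475 with the block). Without whisker-minus library 1 its log2 fold change was 0.15, and it passed in 1 of 3 block fits without a pair. Sparc, Sparcl1 and Emilin1 also passed in 1 of 3 such fits, and Serpinh1, Nid1, Itgb1, Spock2 and Agrn in 2 of 3. Cyr61, another matricellular member named here for comparison, had 1345, 1028 and 771 CPM in whisker-plus libraries. Its whisker-minus libraries had 1346, 1218 and 806 CPM, so the groups overlapped, and Cyr61 did not pass.

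Spock2, Agrn, Sparcl1 and Emilin1 fell in the block fit. Spock2 had 5584, 6087 and 5738 CPM in whisker-plus libraries, against 7503, 7762 and 8293 CPM in whisker-minus libraries, a clear gap, with a log2 fold change of -0.44 ± 0.13 (adjusted p of 0.274, and 0.0191 with the block). Agrn, which organises receptors and channels at basement membranes, had 827, 843 and 907 CPM in whisker-plus libraries, against 1044, 980 and 1181 CPM in whisker-minus libraries. It was also separated, at -0.31 ± 0.10 (adjusted p of 0.283, and 0.0161 with the block). Sparcl1 had 3051, 2922 and 2728 CPM in whisker-plus libraries, against 3504, 3812 and 3501 CPM in whisker-minus libraries. Its groups did not overlap, at -0.31 ± 0.11 (adjusted p of 0.319, and 0.0333 with the block). Lamb2 had 784, 802 and 845 CPM in whisker-plus libraries, against 870, 882 and 879 CPM in whisker-minus libraries, separated at -0.11 ± 0.08 but not passing.

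Astrocytes also express Sparcl1 and Spock2. Sums of 7 astrocyte markers were 283, 308 and 308 CPM in whisker-plus libraries, against 284, 1095 and 972 CPM in whisker-minus libraries. Whisker-minus library 1 had an astrocyte sum like those of the whisker-plus libraries, with 7503 CPM of Spock2 and 3504 CPM of Sparcl1. The part of astrocyte RNA in these values was not tested. Emilin1, an elastic fibre glycoprotein, was low, with 0.963, 1.69 and 2.23 CPM in whisker-plus libraries, against 2.67, 6.77 and 3.64 CPM in whisker-minus libraries. The groups did not overlap, and the log2 fold change was -0.99 ± 0.32 (adjusted p of 0.292, and 0.0349 with the block). Its highest value was in whisker-minus library 2, where the smooth muscle sum was 1607 CPM, against 143 and 571 CPM in the other whisker-minus libraries and 198, 510 and 386 CPM in whisker-plus libraries. Without that library the log2 fold change was -0.68 ± 0.29, and the part of smooth muscle RNA was not tested.

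DESeq2 called 4 members in the whisker comparison (Itgb1, Nid1, Serpinh1 and Spock2), against 3.18% of all genes, and edgeR called 0, against 0%. The authors' deposited table lists the same 4 members with an FDR under 0.05, against 2.57% of 13196 genes. Of the 113 other genes, 86 were tested, 0 passed in the plain fit (12 with an unadjusted p under 0.05, against 13% of all genes; DESeq2 called 7 and edgeR 0), and 9 passed with the block, 5 higher and 4 lower, against 8.59% of all genes. The collagen prolyl hydroxylase subunits P4ha1 and P4ha2 were among those higher. P4ha1 had 112 ± 7.66 CPM in whisker-plus libraries and 70.3 ± 12.3 CPM in whisker-minus libraries (SD, n = 3 each), a log2 fold change of 0.68 ± 0.13 (adjusted p of 0.00530 with the block). P4ha2 was at 0.62 ± 0.16 (adjusted p of 0.00281 with the block). Tinagl1, a matrix glycoprotein of vessels, was at 0.44 ± 0.12, Timp3, an inhibitor of metalloproteinases, at 0.31 ± 0.12, and Pxn (paxillin), an adaptor at integrin adhesions, at 0.22 ± 0.07. The 4 genes lower in the block fit were Ecm2 (-0.43 ± 0.11), Ltbp3 (-0.70 ± 0.20), Mfge8 (-0.69 ± 0.25) and Tns3 (-0.72 ± 0.20). The Mfge8 groups overlapped, at 107 ± 12.5 CPM in whisker-plus libraries and 181 ± 71.8 CPM in whisker-minus libraries. In the plain fit the adjusted p of these 9 genes ran from 0.190 (P4ha1) to 0.347 (Timp3).

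**Figure D4:**
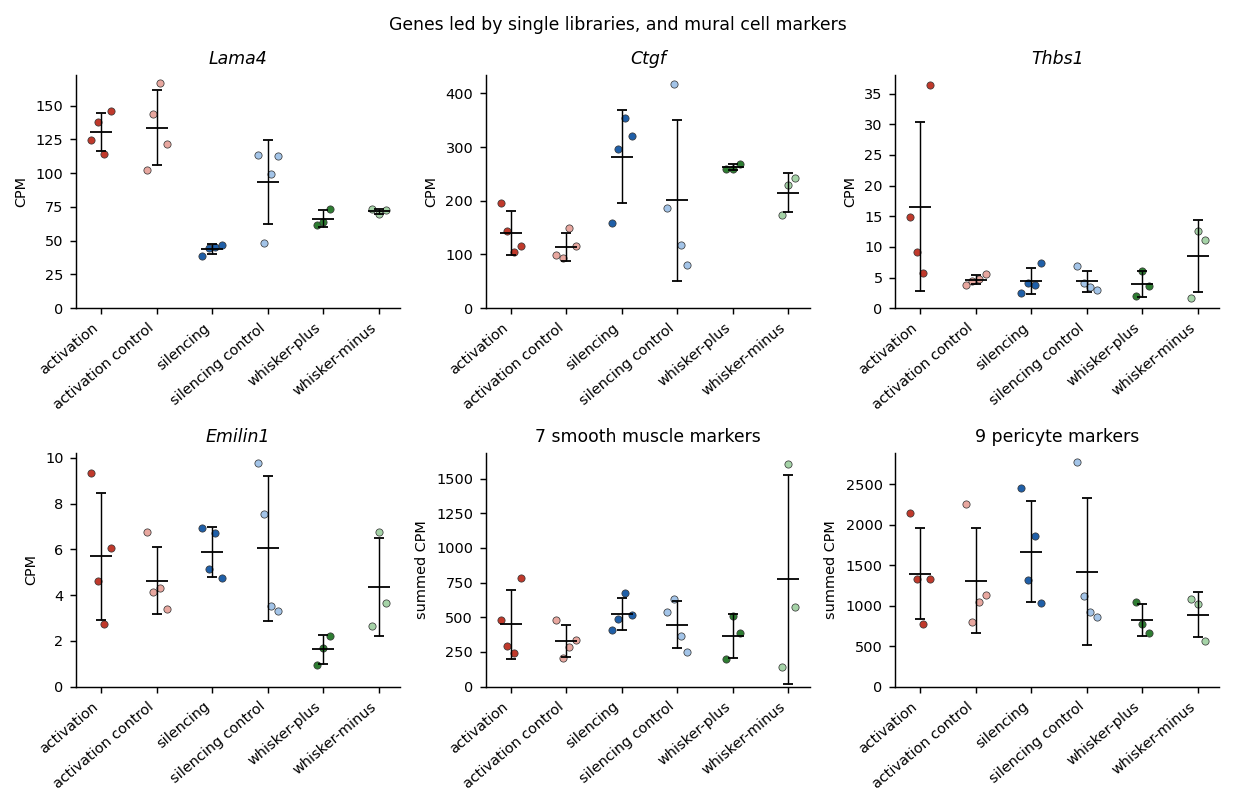
CPM of 4 members for which single libraries or single groups lead, and summed CPM of 7 smooth muscle and 9 pericyte markers, in each library with group mean and SD. Silencing control 2 (48.0 CPM of Lama4) is the lowest of its group. Activation library 4 (36.4 CPM of Thbs1) and whisker-minus library 2 (1607 CPM of smooth muscle markers) are the highest of theirs.

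Activation and whisker libraries share no samples. In 6 of the 38 members tested in both, the groups did not overlap in the same direction in the 2 comparisons, against 2.84% of 12458 genes (354 genes). Nid1, Itgb1 and Serpinh1 were higher in both, and Lamb2, Spock2 and Sparcl1 were lower in both. Nid1 had 117, 132, 124 and 126 CPM in silencing libraries, against 122, 145, 136 and 117 CPM in their controls, and Spock2 had 6899, 7498, 8819 and 7885 CPM, against 7344, 7295, 10408 and 9021 CPM. The groups overlapped for both genes there. Log2 fold changes of these 6 genes in the silencing comparison were -0.05 ± 0.09 for Nid1, -0.10 ± 0.09 for Itgb1, -0.42 ± 0.16 for Serpinh1, -0.08 ± 0.11 for Lamb2, -0.12 ± 0.21 for Spock2 and -0.09 ± 0.16 for Sparcl1, none of which passed.

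Whether activation and silencing differed in their effect was tested as an interaction over the 16 DREADD libraries, as the activation effect minus the silencing effect, and the 2 comparisons have separate controls. In the plain fit 2 of 39 members passed, Serpinh1 and Itga5, against 2.31% of 13464 genes (311 genes). With the replicate block 8 passed, against 6.35% of all genes (855 genes). Of these, 7 were higher (Col18a1, Nid1, Sparc, Itga5, Itgb1, Lox and Serpinh1), against 4.02%, and Lama3 was lower, against 2.33%. DESeq2 called 8 members (Col18a1, Itga1, Itgb1, Lama3, Lama4, Lox, Serpinh1 and Sparc), against 5.64% of all genes, and edgeR 0, against 2.19%. The median difference was 0.21 over the 39 members and 0.06 over all genes.

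Serpinh1 had a difference of 1.24 ± 0.27 (log2), made up of 0.82 in activation and -0.42 in silencing, with an adjusted p of 0.0269 in the plain fit and 0.0110 with the block. It passed in 8 of 8 block fits that left out 1 pair and in 9 of 16 plain fits that left out 1 library, with adjusted p up to 0.0659. The 7 libraries without which the plain call was lost were activation control 3, activation library 4, silencing controls 3 and 4, and silencing libraries 2, 3 and 4. The other collagen-processing genes were on the same side, Lox at 1.24 ± 0.36 (adjusted p of 0.0739, and 0.0353 with the block), Loxl2 at 0.75 ± 0.27, Plod1 at 0.31 ± 0.14 and Plod2 at 0.26 ± 0.25. The median of the 5 was 0.75, which is a description of the group and not a test of it.

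Itga5 had 72.5, 77.2, 71.1 and 64.5 CPM in activation libraries, against 56.5, 67.6, 59.5 and 56.7 CPM in their controls. The groups overlapped by 1 library, whereas the silencing libraries were all under their own controls. The difference was 0.50 ± 0.12 (adjusted p of 0.0443, and 0.0235 with the block), and it passed in 3 of 16 plain fits without 1 library and in 4 of 8 block fits without 1 pair. In the whisker experiment Itga5 had 67.9, 65.7 and 64.5 CPM in whisker-plus libraries, against 62.9, 61.2 and 64.1 CPM in whisker-minus libraries, a small gap at 0.07 ± 0.08. Itgb1 differed by 0.47 ± 0.12 (adjusted p of 0.0533, and 0.0343 with the block). Its silencing libraries had 677, 696, 760 and 723 CPM, against 702, 789, 787 and 790 CPM in silencing controls. Each of these was below its own number, though the groups overlapped.

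Col18a1 had 52.8, 64.4, 64.5 and 77.7 CPM in activation libraries, against 43.3, 55.4, 56.1 and 42.2 CPM in their controls, with overlap. Its difference was 0.70 ± 0.18 (adjusted p of 0.0513, and 0.0336 with the block). Sparc differed by 0.62 ± 0.16 (adjusted p of 0.0510, and 0.0475 with the block) and Nid1 by 0.49 ± 0.16 (adjusted p of 0.117, and 0.0295 with the block). Of the 8 block fits without 1 pair, Col18a1 passed in 2, Sparc in 1, Nid1 in 3, Itgb1 in 2 and Lox in 1. Of the 16 plain fits without 1 library, Col18a1 passed in 3, Sparc in 2, Nid1 in 0, Itgb1 in 2 and Lox in 1. In silencing, Sparc had 1576, 1656, 1582 and 1418 CPM, against 1535, 1550, 1816 and 1958 CPM in controls, and the groups overlapped.

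Lama3 was the member whose effects differed in the other direction. It had 42.4, 56.1, 63.5 and 61.6 CPM in silencing libraries, against 42.0, 47.6, 46.2 and 42.9 CPM in their controls, with each silencing library above its own number and an overlap of 1 library. Its difference was -0.88 ± 0.27, with an adjusted p of 0.0990 in the plain fit and 0.00877 with the block. It passed in 8 of 8 block fits without 1 pair and in 2 of 16 plain fits without 1 library, with adjusted p up to 0.196 in the latter. In the whisker experiment Lama3 had 33.7, 33.8 and 53.8 CPM in whisker-plus libraries, against 47.4, 45.0 and 55.4 CPM in whisker-minus libraries, each below its own number, and did not pass at -0.31 ± 0.19 (adjusted p of 0.543, and 0.0720 with the block). Lama4 differed by 0.99 ± 0.30 and did not pass (adjusted p of 0.0903, and 0.0603 with the block); without silencing control 2 its difference was 1.28 ± 0.19, with an adjusted p of 0.00110. Over the 16 plain fits without 1 library the difference ran from 0.87 to 1.28, with adjusted p of up to 0.201.

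Of the 113 other genes, 95 were tested for this difference, and 2 were higher and 2 lower in the plain fit, against 2.31% of all genes. Ilk, the integrin-linked kinase, differed by 0.98 ± 0.24 and Efemp2, the elastic fibre protein fibulin-4, by 0.82 ± 0.20 (adjusted p of 0.0457 for both). The lower genes were Tln2 (-0.98 ± 0.18, adjusted p of 0.0119) and the proteoglycan Sdc3, syndecan-3 (-0.76 ± 0.15, adjusted p of 0.0211). With the block Zyx (0.76 ± 0.25) and Bcar1 (0.38 ± 0.33), adaptors at integrin adhesions, passed as well, and so did the laminin chain Lamc3 (-0.87 ± 0.24), making 7 of 95, against 6.35% of all genes.

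**Figure D5:**
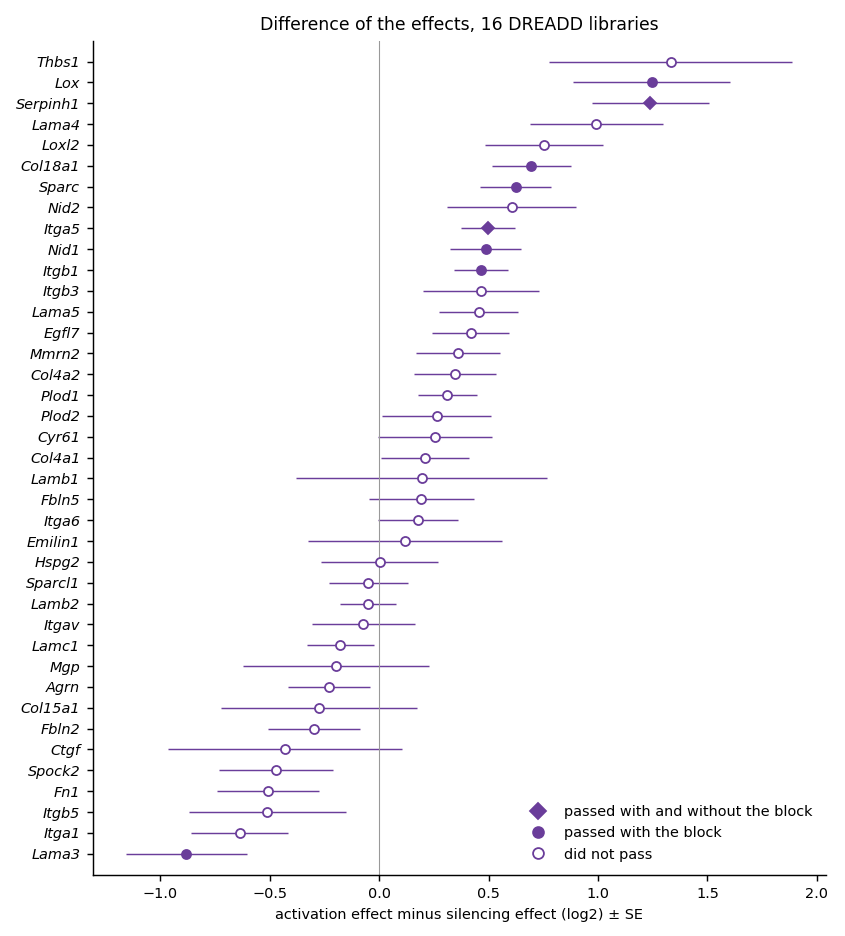
Activation effect minus silencing effect (log2) with its standard error for the 39 members, ordered by size. Diamonds passed with and without the replicate block (Serpinh1 and Itga5), filled circles with the block (6 further members), and Lama3 lies at the low end at -0.88.

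In all, 13 members passed in at least 1 comparison and fit, and 26 passed in neither fit of any. The log2 fold changes of these 26 ran between -0.35 (Itga1) and 1.34 (Thbs1) in activation, between -1.01 (Lama4) and 0.38 (Itgb5) in silencing and between -0.74 (Thbs1) and 0.59 (Lamb1) in the whisker comparison. The whisker values of both moved with single libraries: Thbs1 was at -1.48 without whisker-minus library 1 and -0.33 without whisker-minus library 2, and Lamb1 at 1.00 without library 1 and 0.29 without library 3 of that group. Fn1, the ligand of Itga5 and Itgb1, had 3243, 2783, 3085 and 3052 CPM in activation libraries, against 3334, 3521, 4307 and 4067 CPM in controls. The groups did not overlap, at -0.32 ± 0.14 (adjusted p of 0.423), while Fn1 was at 0.19 ± 0.20 in silencing and 0.03 ± 0.13 in the whisker comparison.

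Among the other integrin subunits, the collagen receptor chain Itga1 was at -0.35 ± 0.16 in activation and 0.29 ± 0.13 in silencing, with a difference of -0.64 ± 0.22 (adjusted p of 0.139, and 0.0505 with the block). The laminin receptor chain Itga6 was at 0.20 ± 0.12, 0.02 ± 0.14 and 0.12 ± 0.10 in activation, silencing and whisker libraries. Itgb3 and Itgb5, partners of Itgav, were at 0.10 ± 0.19 and -0.13 ± 0.25 in activation and at -0.37 ± 0.19 and 0.38 ± 0.22 in silencing.

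Lamb1, the minor laminin beta chain, had 17.9, 9.44, 4.54 and 9.69 CPM in activation libraries, against 12.9, 5.49, 4.03 and 6.80 CPM in controls. In that experiment it was highest in replicate 1 of each group, as were the pericyte sums, at 2148 CPM in the activation library and 2253 CPM in the control. In the silencing experiment Lamb1 had 12.5, 17.5, 10.5 and 6.72 CPM in silencing libraries, against 13.4, 16.9, 5.47 and 5.83 CPM in controls. There it was highest in replicate 2, while the pericyte sums were highest in replicate 1, at 2448 CPM in the silencing library and 2774 CPM in the control. Mgp, matrix Gla protein, had 140, 131, 55.0 and 44.2 CPM in activation libraries, against 89.2, 97.7, 75.8 and 89.3 CPM in controls, so the spread was within the activation group. Col15a1 had 1.00, 2.40, 0.601 and 2.82 CPM in silencing libraries, against 2.85, 0.833, 1.01 and 0.977 CPM in controls, at a level too low to rank.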

How the data were processed

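Endothelial RNA of 22 mouse libraries was measured by paired-end RNA-seq. Per the submitters' processing notes reads were processed on mm9 with Bowtie2 2.2.1, TopHat2 2.0.11, HTSeq 0.6.1, SAMtools 0.1.19 and DESeq2. The authors deposited 1 table of CPM values that also gives, for each comparison, a log2 fold change, a p-value and an FDR of theirs; 6 columns of group means were not used. All CPM values were whole multiples of 1 read within 0.01 read, so reads were recovered for DESeq2 1.42.0 and edgeR 4.0.16 as alternatives.

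Genes reaching 1 CPM in a number of libraries equal to the size of the smaller group were tested with limma 3.58.1 (trend, R 4.3.3) on log2(CPM + 1), each comparison in its own libraries, with Benjamini-Hochberg adjustment over all tested genes and a threshold of 0.05. Same-numbered libraries deviated together, with correlations of 0.28 to 0.45 in activation, 0.14 to 0.60 in silencing and 0.46 to 0.62 in the whisker experiment, so they were treated as pairs on the evidence of the data. The plain and block fits were run on simulated counts of the activation experiment without pair effects, with changes larger than most reported here. Such counts cannot show how the fits perform on paired libraries or smaller changes. Exon lengths and overlaps came from GENCODE M21. Intervals for counting error are not given. Labels call the replicates biological samples.

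Values are given for every library for members that passed in either fit, or did not overlap in at least 2 comparisons; members named otherwise are said to be so or are given by fold change. The members and lists were chosen with earlier results of these data known.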

Additional observations from a re-analysis of the deposited data

Results flagged for a closer look

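In groups of 4 libraries, single values lay far from the other 3 by Dixon's criterion in 9 of 156 combinations of member and group, and chance gives about 1 in 20. The activation libraries held 1 of these, the lowest Sparcl1, 2241 CPM in library 3. Activation controls held 5, the highest Col4a1 (1516 CPM), Fbln2 (94.6 CPM) and Mmrn2 (652 CPM) in control 2, the highest Egfl7 (873 CPM) in control 1 and the lowest Lox (2.34 CPM) in control 1. The silencing libraries held the highest Lama5, 600 CPM in library 3. Silencing control 1 had the highest Col15a1 (2.85 CPM) and the lowest Itgb1 (702 CPM) of its group.

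In the plain interaction test the effects of activation and silencing differed for Serpinh1, by 1.24 on the log2 scale, and for Itga5, by 0.50. Serpinh1 but not Itga5 passed with RLE scaling, TMM scaling or DESeq2, and neither passed with no filter or with edgeR.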

How the results depend on the processing

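Fold changes of the 20 gene results that passed in either fit kept their sign in all 529 values computed under the alternatives, while the number of members that passed depended on the setting. These results were chosen for passing in the same libraries, so the kept signs are no separate support for them. For activation, the count was 0 in the plain fit and with RLE scaling, TMM scaling, no filter, a pseudocount of 0.1 or edgeR, 3 with the replicate block, 4 with all 22 libraries in 1 fit and 6 with DESeq2, where 0.14% of all genes passed in the plain fit, 1.82% with the block, 1.97% with all 22 libraries and 2.88% with DESeq2. For silencing it was 0 in the plain fit and with the block, and 1 with all 22 libraries (1.71% of all genes) and with DESeq2 (3.55%). The whisker count was 0 in the plain fit, 9 with the block (8.59% of all genes) and 4 with DESeq2 (3.18%). For the difference between activation and silencing it was 2 in the plain fit, 1 with RLE or TMM scaling, 0 with no filter or with edgeR, 8 with the block (6.35% of all genes) or DESeq2 (5.64%) and 6 with all 22 libraries (3.99%), against 2.31% of all genes in the plain fit. Settings chosen after seeing the data gave, for activation, silencing, whisker and difference in that order, 1, 0, 5 and 5 members with the block and TMM scaling, 8, 1, 12 and 12 with DESeq2 and the block, and 1, 0, 6 and 5 with edgeR and the block. Over all genes these settings called 1.07%, 1.03%, 6.6% and 6.24%, then 5.04%, 5.15%, 9.95% and 9.25%, then 0.715%, 0.891%, 5.87% and 6.06%. With each library left out in turn the plain counts ran from 0 to 0, 0 to 6, 0 to 1 and 0 to 6, and with each pair left out of the block fit from 0 to 1, 0 to 10, 0 to 17 and 2 to 10. The 10 in silencing came without pair 2, where 18.4% of all genes passed (2399 genes), and the 6 there without control 2, where 11.5% did. For the difference, the 10 came without silencing pair 2, where 10.3% of all genes passed (1392 genes). The 6 there came without silencing control 2, where 6.73% did (915 genes). The 1 in activation came without pair 2 (0.356% of all genes), and the 1 in the plain whisker fits without whisker-minus library 1 (2.67%). The whisker counts without pairs 1, 2 and 3 were 17, 7 and 0, beside 2381, 689 and 1 of all genes. Fits that leave a group with fewer libraries assume that the spread is shared. The cause of the differing counts was not tested.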
